A study of Homo sapiens with 4 samples.

Results

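The genes of human chromosome 20 were followed along the chromosome, from the tip of the short arm to the tip of the long arm, in a comparison of ribosome footprints between K562 and HepG2 cells. Members are the genes on chromosome 20 that had 20 or more uniquely mapped footprint reads at their splice junctions over both cell lines together, counted only at junctions assigned to 1 gene. Of 879 chromosome 20 genes with a listed junction, 301 met this minimum, among 10956 such genes in the genome. The short arm, taken as genes ending below 28 Mb, held 91 of them and the long arm held 210. The chromosome was chosen by the ratio of HepG2 to K562 reads over its genes, so those ratios are described here and support nothing beyond themselves.

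A ribosome covers a short stretch of messenger RNA and protects it from nuclease, and sequencing these footprints shows which messages are being translated and how heavily. A footprint that spans the join of neighbouring exons can be assigned to a spliced transcript. Chromosome 20 carries genes of very different roles side by side, among them the DNA replication clamp PCNA, the stimulatory G protein alpha subunit GNAS, the nuclear receptor HNF4A and the mitotic kinase AURKA. Cultured tumour lines often have abnormal karyotypes, and gene copy number was not measured in the files used here.

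K562 is an established line from a chronic myelogenous leukemia with erythroid features, and HepG2 is an established line from a liver tumour with hepatocyte features. The labels give 2 samples per line and name no treatment, and the deposited counts hold 1 table per line, so no spread between samples could be computed and no test was made. All cells were lysed with CHX (cycloheximide, which holds elongating ribosomes in place), digested with RNase I and depleted of ribosomal RNA with RiboZero. The tables held 7222089 unique single-gene junction reads for K562 and 9607307 for HepG2. Markers went with the labels: 15 erythroid genes summed to 12173 reads in K562 and 32 in HepG2, and 14 hepatocyte genes summed to 277 and 1145316, with GATA1, KLF1 and TAL1 at 0 in HepG2 and TTR at 0 in K562. The globin genes HBG1, HBG2, HBZ, HBA1 and HBA2 were at 0 unique reads in both lines, with 672 to 12249 reads in K562 when multi-mapped reads were included. The 7 fibroblast markers summed to 248 reads in K562, mostly COL1A2, and 35 in HepG2. HNF4A and FOXA2 are hepatocyte markers that also lie on chromosome 20.

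The reads behind the ratios come from joins such as these, which show, for each gene, its most-read coding junction in the GENCODE 29 transcripts (GRCh38), 15 bases on either side, 5′ to 3′ along the transcript, with the downstream exon in capitals. PCNA, HNF4A, UBE2C, GNAS and RPN2 stand for genes higher in HepG2, NOP56 for a gene whose interval spans 1 and CTCFL for a gene read in K562 alone.
PCNA: aaagaggaggaagctGTTACCATAGAGATG
GNAS: tttgacttccctcccGAATTCTATGAGCAT
RPN2: ctgctcttcgctctgTGGATCCGGATTGGT
HNF4A: tcttctttgacccagATGCCAAGGGGCTGA
UBE2C: ggagcagctggaacaGTATATGAAGACCTG
NOP56: acgccgtgtctgaagGGGTTGTTCATGAGG
CTCFL: actggactgatcaagCTCGAGGAAGAGCAG

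The intron removed at each of these joins lies inside the gene's coding part. For PCNA it is chr20:5115573-5117469 on the minus strand, with 1445 reads in K562 and 5511 in HepG2. For GNAS it is chr20:58903792-58905382 on the plus strand, with 324 and 4618 reads, and for RPN2 chr20:37232392-37234019 on the plus strand, with 1402 and 3268. In these genes the single junction already lay on the HepG2 side. For HNF4A it is chr20:44419877-44424017 on the plus strand, with 0 reads in K562 and 410 in HepG2. The UBE2C intron, chr20:45814471-45815540 on the plus strand, had 0 and 1165 reads. For NOP56, chr20:2653394-2654413 on the plus strand, the counts were 239 in K562 and 184 in HepG2, and for CTCFL, chr20:57523279-57523662 on the minus strand, 98 and 0. UBE2C and HNF4A were thus read only in HepG2 at these sites, and CTCFL only in K562.

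Chromosome 20 genes as a group had more footprints in HepG2 than in K562. Ratios below are HepG2 over K562 unique reads after scaling by TMM effective depth, a positive log2 value means more in HepG2, and brackets hold the exact 95% binomial interval, which covers counting error only since PCR copies cannot be told from separate molecules here. Genes whose whole interval lay past 2-fold are called higher in that line. Where 1 table held 0 reads, a fold is given as "at least" with that table set to 3 reads, the number that a count of 0 allows, while the call uses the exact interval, whose limit is lower (723-fold for UBE2C, where the floor gives 890.1). By that rule 149 of the 301 genes (49.5%) were higher in HepG2, against 21.9% of all genes tested, and 20 (6.64%) were higher in K562, against 16.8%. The other 132 genes passed neither limit. Scaled by total reads instead, the shares of all genes become 17.6% and 24.2%, and on chromosome 20 the counts become 109 genes higher in HepG2 and 24 in K562. With 1 table per line, more message per cell, more ribosomes per message and differences between the cultures cannot be told apart.

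The median chromosome 20 gene had a log2 ratio of 1.31 (quartiles 0.42 and 2.20), and the median of the 10655 genes on all other chromosomes was -0.02. The difference of 1.33 on the log2 scale is 2.52-fold and does not move with the scaling. Of the 301 genes, 252 (83.7%) lay above the median of the other chromosomes and 49 below it. Ordered by median among 23 chromosomes, chromosome 20 came first, chromosome 14 followed at 0.77 with 129 of 368 genes higher in HepG2, then chromosome 2 at 0.43, and the X chromosome came last at -0.52. The lower quartile of chromosome 20, 0.42, was close to the median of chromosome 2.

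**Figure D1:**
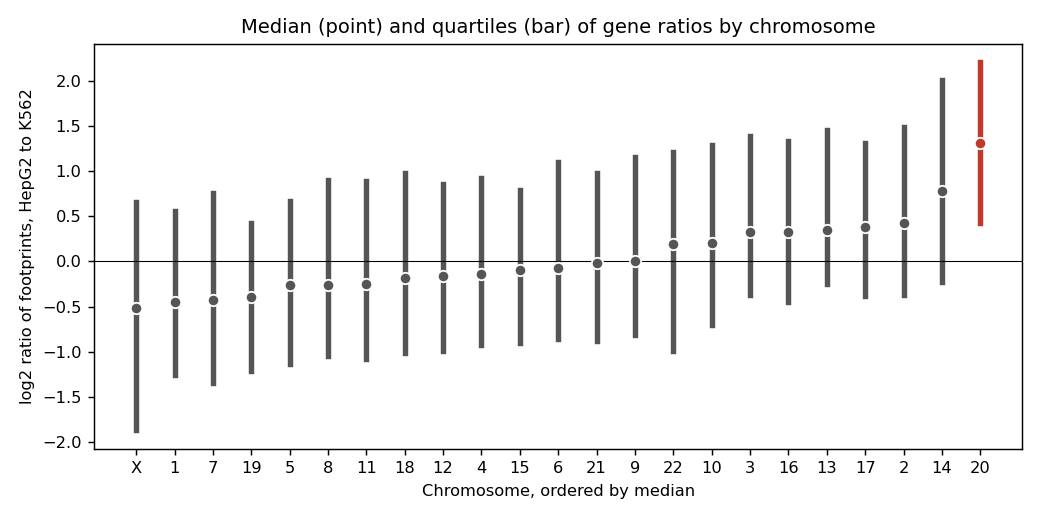
Median (point) and lower to upper quartile (bar) of the log2 ratio of footprints, HepG2 to K562, for the measured genes of each chromosome, ordered by median along the horizontal axis. Chromosome 20, in red, has the highest median, 1.31, and its lower quartile of 0.42 lies above 0.

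In total, chromosome 20 took 2.14% of single-gene reads in K562 (154338 reads) and 3.78% in HepG2 (363320 reads). Secreted liver proteins fill a large part of the HepG2 table, and without the 10 most-read genes of each table the shares were 2.23% and 4.60%. The short arm went from 0.512% in K562 to 1.16% in HepG2, and the long arm from 1.62% to 2.62%. Both arms therefore had the larger share in HepG2.

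Along the chromosome no window of 5 Mb fell to the level of the other chromosomes. In all 13 windows the median ratio lay above the median of the other chromosomes, from 0.72 between 55 and 60 Mb to 2.68 between 20 and 25 Mb. Windows held 9 to 40 genes, and 6 of them held fewer than 20, the highest one among them with 11. The window from 55 to 60 Mb was mixed, with 6 genes higher in HepG2, 6 higher in K562 and 8 neither, and its values ran from -8.22 (SYCP2) to 6.53 (PCK1). The longest run of neighbouring measured genes above the median of the other chromosomes was 23, from ANKEF1 to DTD1 on the short arm. The longest run below it was 3, from TGM2 to SNHG11 on the long arm.

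**Figure D2:**
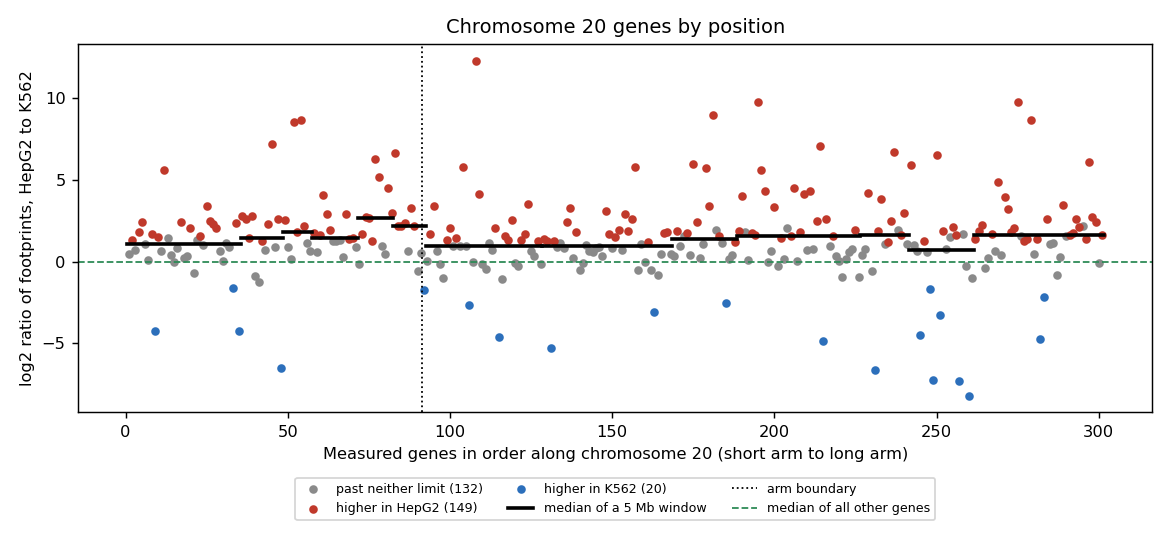
Log2 ratio of footprints, HepG2 to K562, for the 301 genes in order along chromosome 20. Red points are genes higher in HepG2 (149), blue points higher in K562 (20) and grey points neither (132), bars are medians of 5 Mb windows and the dotted line is the arm boundary. All 13 window medians lie above the dashed median of the other chromosomes, and genes read in 1 line only are set to a floor of 3 reads in the other.

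Both arms were shifted toward HepG2, the short arm more than the long arm by median over all members. The short arm had a median log2 ratio of 1.43 (quartiles 0.65 and 2.44), with 49 of 91 genes higher in HepG2, 4 higher in K562 and 38 neither. The long arm had a median of 1.25 (0.32 and 2.05), with 100 of 210 higher in HepG2, 16 higher in K562 and 94 neither. The medians differed by 0.18, and over 14 alternatives the difference ran from 0.02 (minimum of 1 read) to 0.38 (without the most-read junction of each gene), so its size depends on the setting. With 100 or more reads in each table the medians were 1.28 (48 short arm genes) and 1.11 (109 long arm genes). With 1000 or more in each the order turned, at 0.605 (7 short arm genes) and 0.72 (28 long arm genes). Above the median of the other chromosomes lay 82 of 91 short arm genes (90.1%) and 170 of 210 long arm genes (81.0%).

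Values next to the centromere were mixed on both sides. The last measured short arm genes were GINS1, a subunit of the replicative helicase, with 774 K562 reads and 1208 HepG2 reads, a ratio of 1.57 (1.43 to 1.72), then NINL, a centrosomal protein, with 14 K562 reads and 134 HepG2 reads, a ratio of 9.62 (5.54 to 18.1), and NANP, a phosphatase of sialic acid synthesis, with 12 K562 reads and 54 HepG2 reads, a ratio of 4.52 (2.39 to 9.29). After these, ZNF337-AS1 at 29 K562 reads and 19 HepG2 reads and ZNF337 at 9 K562 reads and 13 HepG2 reads had intervals that spanned 1. The long arm began with the pseudogenes FRG1CP, with 139 K562 reads and 41 HepG2 reads, and FRG1BP, with 73 K562 reads and 74 HepG2 reads. Only 35.4% and 37.1% of their mapped reads were unique, and reads of near-identical FRG1 copies may be divided among them, so both values are uncertain. FRG1CP lost its call with all mapped reads, at a log2 ratio of -0.93 in place of -1.75, and lay at 0.18 without its most-read junction. The next genes were HM13, the signal peptide peptidase, with 1810 K562 reads and 5881 HepG2 reads, a ratio of 3.26 (3.10 to 3.44), ID1, an inhibitor of helix-loop-helix transcription factors, with 18 K562 reads and 191 HepG2 reads, a ratio of 10.7 (6.57 to 18.4), and BCL2L1, an inhibitor of cell death, with 114 K562 reads and 177 HepG2 reads, a ratio of 1.56 (1.23 to 1.99).

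The shift was smaller but present in well-read genes. Among genes with 100 or more reads in each table, the 157 on chromosome 20 had a median of 1.17, with 78 higher in HepG2 and 1 higher in K562, where the 5509 elsewhere had -0.07, with 11.7% and 10.5%. The gene higher in K562 was DNMT3B. In that set 141 of 157 chromosome 20 genes (89.8%) lay above the median of the other chromosomes. Their values spread around their own median about as widely as other genes: 75.2% were within 2-fold of it, against 71.0% elsewhere. Among genes with 1000 or more reads in each table, the 35 on chromosome 20 had a median of 0.67, with 13 (37.1%) higher in HepG2 and 0 in K562, and the 1203 elsewhere had -0.11, with 8.89% and 10.6%. Genes nearly absent from 1 line make up the tails: 46 members (15.3%) had under 10 reads in K562, against 11.2% of genes elsewhere, and 13 (4.32%) had under 10 in HepG2, against 9.15%.

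**Figure D3:**
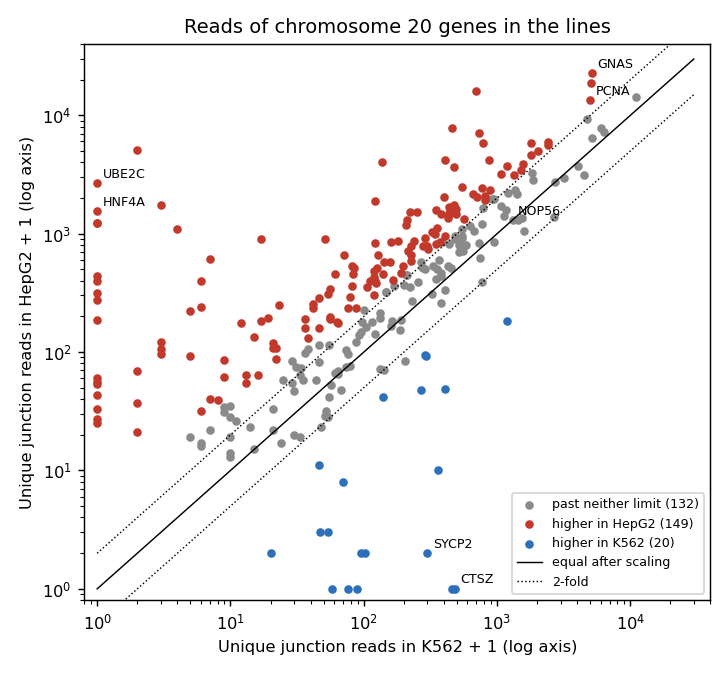
Unique junction reads of each chromosome 20 gene in K562 (horizontal) and HepG2 (vertical), each plus 1, on log axes. The solid line is equality after scaling and dotted lines are 2-fold; most points lie above the solid line, the genes higher in HepG2 (red) reach down to 0 reads in K562, and the genes higher in K562 (blue) include 1 well-read gene, DNMT3B, at 1186 reads.

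Within genes the junctions were compared as a description, since the call of a gene is made from the sum of these same junctions. Of the 149 genes higher in HepG2, 126 had at least 3 junctions of 10 or more reads each, and in 102 of these every such junction lay on the HepG2 side. The 10 genes higher in K562 with that many junctions had every junction on the K562 side. Among 99 such genes that passed neither limit, every junction lay on the HepG2 side in 24 and on the K562 side in 2. PCNA had 5 such junctions, with ratios from 1.82 to 3.95. RPN2, a subunit of the oligosaccharyltransferase that was picked after its values were seen, had 5057 K562 reads and 18551 HepG2 reads, a ratio of 3.69 (3.57 to 3.80) as a gene. Its 22 junctions ran from 1.34 (0.408 to 4.68), at 6 K562 reads and 8 HepG2 reads, to 10.4 (8.46 to 12.9). GNAS varied most of the genes examined in this way: its 17 junctions ran from 0.861 (0.239 to 2.99) to 23.1 (16.9 to 32.6) around a median of 4.43. The lowest was a 5′ untranslated junction with 7 K562 reads and 6 HepG2 reads. The most-read GNAS junction had a ratio of 14.3 (12.8 to 16.1) while the gene as a whole had 4.42. The 11 junctions of NOP56 lay on both sides of 1, from 0.437 (0.319 to 0.591) to 1.94 (1.21 to 3.18).

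Strongly shifted genes on the short arm were mostly genes with little or no signal in K562. SPTLC3, a subunit of serine palmitoyltransferase in sphingolipid synthesis, had 0 K562 reads and 1219 HepG2 reads, at least 408-fold higher in HepG2. JAG1, a Notch ligand, had 3 K562 reads and 1103 HepG2 reads, a ratio of 369 (126 to 1794). FERMT1, a kindlin that activates integrins, had 0 K562 reads and 434 HepG2 reads, at least 145-fold higher in HepG2. These 3 genes were at 0 to 3 reads in K562. ACSS1, the mitochondrial acetyl-CoA synthetase, had 6 K562 reads and 614 HepG2 reads, a ratio of 103 (47.0 to 281). SIRPA, the receptor for CD47, had 5 K562 reads and 241 HepG2 reads, a ratio of 48.4 (20.5 to 150.5). By contrast CST3, the secreted protease inhibitor cystatin C, was read in both lines, with 701 K562 reads and 16008 HepG2 reads, a ratio of 22.9 (21.3 to 24.8). RRBP1, a ribosome-binding protein of the rough endoplasmic reticulum, likewise had 458 K562 reads and 7854 HepG2 reads, a ratio of 17.2 (15.7 to 19).

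On the long arm the far end of the range held BPIFB2, a secreted member of the BPI fold family, with 1 K562 read and 5059 HepG2 reads, a ratio of 5083 (912 to 200791). HNF4A, the nuclear receptor that drives hepatocyte genes, had 0 K562 reads and 1545 HepG2 reads, at least 517-fold higher in HepG2. PCK1, the cytosolic enzyme that commits carbon to gluconeogenesis, had 0 K562 reads and 276 HepG2 reads, at least 92.4-fold higher in HepG2. HNF4A and PCK1 were not read in K562. SULF2, an extracellular heparan sulfate sulfatase, had 0 K562 reads and 399 HepG2 reads, at least 134-fold higher in HepG2. COL9A3, a collagen chain known from cartilage, had 2 K562 reads and 1759 HepG2 reads, a ratio of 884 (244 to 7302). SLC17A9, the vesicular nucleotide transporter, had 0 K562 reads and 1226 HepG2 reads, at least 411-fold higher in HepG2, and ATP9A, a phospholipid flippase, had 0 K562 reads and 312 HepG2 reads, at least 104-fold higher in HepG2. In all, 16 members were at 0 reads in K562 and 5 at 0 in HepG2.

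UBE2C, the ubiquitin-conjugating enzyme that works with the anaphase-promoting complex and is needed by dividing cells, had 0 K562 reads and 2658 HepG2 reads, at least 890.1-fold higher in HepG2. Its HepG2 reads came from 10 junctions. In K562 it was at 0 with all mapped reads as well, where HepG2 had 2770. Other mitotic genes of the chromosome, AURKA and TPX2, were well read in K562, and the cause of the K562 value was not tested.

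Of the 20 genes higher in K562, 6 lay in the window from 55 to 60 Mb, which also held 6 genes higher in HepG2. No other window held more than 3 of the 20. CTSZ, a lysosomal cysteine protease, had 486 K562 reads and 0 HepG2 reads, at least 161-fold higher in K562. CTCFL, a testis paralog of the insulator protein CTCF, had 456 K562 reads and 0 HepG2 reads, at least 151-fold higher in K562. SYCP2, a component of the synaptonemal complex of meiosis, had 299 K562 reads and 1 HepG2 read, a K562/HepG2 ratio of 298 (53.0 to 11794). CTCFL and SYCP2 are known as genes of the germline. PREX1, an activator of Rac known from neutrophils, had 88 K562 reads and 0 HepG2 reads, at least 29.2-fold higher in K562, and PXMP4, a peroxisomal membrane protein, had 75 K562 reads and 0 HepG2 reads, at least 24.9-fold higher in K562. PROCR, the endothelial protein C receptor, had 359 K562 reads and 9 HepG2 reads, a K562/HepG2 ratio of 39.7 (20.7 to 87.5). RIPOR3 had 101 K562 reads and 1 HepG2 read, and PLCB4, a phospholipase C, had 94 K562 reads and 1 HepG2 read. CTSZ, CTCFL, PREX1 and PXMP4 were, with RASSF2, the 5 members at 0 in HepG2. DNMT3B, a de novo DNA methyltransferase, was the best read of the 20, with 1186 K562 reads and 183 HepG2 reads, a K562/HepG2 ratio of 6.45 (5.52 to 7.58).

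The shift was then followed through 11 lists of chromosome 20 genes by function. The lists held 169 members, each counted once, with a median log2 ratio of 1.10 (76 higher in HepG2, 10 in K562), and the 132 members in no list had a median of 1.56 (73 and 10). Each list count below can be read against the 49.5% and 6.64% of the whole chromosome and against 21.9% and 16.8% of all genes. Of the lists, 10 had a median between 0.60 and 3.67, and the short list of noncoding genes had -0.89. Scaling by total reads lowers every ratio by 0.42 on the log2 scale, and the sign turns for 0 of the 11 list medians. Among the genes named here it ends the HepG2 call of PCNA, XRN2, RALY, EIF6, TM9SF4, DPM1, NANP, SEC23B, PRPF6, TRMT6 and TAF4. It gives ZFAS1 a K562 call and turns the sign of SNRPB, RPS21, TOP1, DDX27, YWHAB, MAPRE1, PTPRA, FRG1BP, DBNDD2 and UBE2V1. AURKA passed the limit with all mapped reads and with coding junctions only.

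Of 16 measured genes of cell division and DNA replication, 5 were higher in HepG2, 0 in K562 and 11 neither, with a median of 0.70. PCNA, the sliding clamp of DNA polymerases, had 4989 K562 reads and 13384 HepG2 reads, a ratio of 2.70 (2.61 to 2.78). AURKA, the mitotic kinase at spindle poles, had 955 K562 reads and 1958 HepG2 reads, a ratio of 2.06 (1.91 to 2.23), just short of the limit. TOP1, DNA topoisomerase I, had 5122 K562 reads and 6387 HepG2 reads, a ratio of 1.25 (1.21 to 1.30). TPX2, the spindle factor that activates AURKA, was near equal, with 4042 K562 reads and 3693 HepG2 reads, a ratio of 0.918 (0.878 to 0.960). MAPRE1, the microtubule end-binding protein EB1, also was, with 2741 K562 reads and 2729 HepG2 reads, a ratio of 1.0 (0.948 to 1.06).

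Of 15 genes of RNA splicing and processing, 6 were higher in HepG2, 1 in K562 and 8 neither, with a median of 0.60. RALY, an hnRNP-like RNA-binding protein, had 2401 K562 reads and 5975 HepG2 reads, a ratio of 2.50 (2.38 to 2.62), and XRN2, the nuclear 5′ to 3′ exonuclease of transcription termination, had 2394 K562 reads and 5614 HepG2 reads, a ratio of 2.36 (2.25 to 2.47). SNRPB, which encodes the Sm core proteins B and B′, had 5999 K562 reads and 7810 HepG2 reads, a ratio of 1.31 (1.26 to 1.35). SNRPB2, the U2 snRNP protein B″, had 1868 K562 reads and 2828 HepG2 reads, a ratio of 1.52 (1.43 to 1.61). RBM39, a splicing cofactor, lay on the K562 side without passing the limit, with 4516 K562 reads and 3129 HepG2 reads, a ratio of 0.696 (0.665 to 0.729). The gene against the list was RBM38, an RNA-binding protein of erythroid splicing, with 290 K562 reads and 92 HepG2 reads, a K562/HepG2 ratio of 3.14 (2.47 to 4.01). Without its most-read junction RBM38 lost the call, at a log2 ratio of -0.93 in place of -1.65, and so did RALY, at 0.94 in place of 1.32.

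Of 14 genes of the ribosome, translation and tRNA modification, 5 were higher in HepG2, 1 in K562 and 8 neither, with a median of 0.64. EIF6, the factor that keeps the ribosomal subunits apart, had 1336 K562 reads and 3142 HepG2 reads, a ratio of 2.36 (2.22 to 2.52), and lost its call without its most-read junction, at a log2 ratio of 1.12 in place of 1.24. RPS21, a protein of the small subunit, had 11016 K562 reads and 14358 HepG2 reads, a ratio of 1.31 (1.28 to 1.34), and DDX27, a helicase of ribosome assembly, had 1134 K562 reads and 1409 HepG2 reads, a ratio of 1.25 (1.15 to 1.35). NOP56, a core protein of box C/D snoRNPs, had an interval that spanned 1, with 1312 K562 reads and 1290 HepG2 reads, a ratio of 0.988 (0.914 to 1.07). EEF1A2, the tissue-restricted elongation factor, was the 1 gene higher in K562, with 53 K562 reads and 2 HepG2 reads, a K562/HepG2 ratio of 26.4 (6.95 to 223).

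Of 15 genes of the ubiquitin system, proteasome and protein folding, 7 were higher in HepG2, 1 in K562 and 7 neither, with a median of 1.34. PSMA7, an alpha subunit of the proteasome core, had 868 K562 reads and 4151 HepG2 reads, a ratio of 4.80 (4.46 to 5.18), and all 6 of its junctions with 10 or more reads had ratios above 2. PSMF1, the proteasome inhibitor PI31, had 665 K562 reads and 2180 HepG2 reads, a ratio of 3.29 (3.02 to 3.60). ADRM1, the ubiquitin receptor of the proteasome cap, had 1079 K562 reads and 1714 HepG2 reads, a ratio of 1.60 (1.48 to 1.72), and PFDN4, a prefoldin subunit, had 788 K562 reads and 1643 HepG2 reads, a ratio of 2.09 (1.92 to 2.28). The exception was RNF24, a RING finger protein, with 288 K562 reads and 93 HepG2 reads, a K562/HepG2 ratio of 3.08 (2.43 to 3.94), which lost its call without its most-read junction, at a log2 ratio of -1.46 in place of -1.62. PFDN4 gained one there, at 1.42.

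All 23 measured genes of membrane traffic and glycosylation lay above the median of the other chromosomes, 12 of them higher in HepG2, 0 in K562 and 11 neither, with a median of 1.39. SNX5, a sorting nexin of endosomes, had 791 K562 reads and 5845 HepG2 reads, a ratio of 7.42 (6.89 to 8.01). CTSA, the lysosomal protective protein cathepsin A, had 409 K562 reads and 4155 HepG2 reads, a ratio of 10.2 (9.22 to 11.3). TM9SF4, a nonaspanin membrane protein, had 2015 K562 reads and 5011 HepG2 reads, a ratio of 2.50 (2.37 to 2.63). Smaller ratios were seen for DPM1, the catalytic subunit of dolichol phosphate mannose synthase, with 1518 K562 reads and 3471 HepG2 reads, a ratio of 2.30 (2.16 to 2.44), and for ERGIC3, a cargo receptor of the early secretory pathway, with 1840 K562 reads and 3270 HepG2 reads, a ratio of 1.79 (1.69 to 1.89).

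Of 22 genes of metabolism and mitochondria, 13 were higher in HepG2, 1 in K562 and 8 neither, with a median of 1.99. This list was the most altered by the removal of misplaced entries, and as first written it had 29 measured genes and a median of 1.37. PYGB, the brain form of glycogen phosphorylase, had 548 K562 reads and 2476 HepG2 reads, a ratio of 4.54 (4.14 to 4.99), and ROMO1, a small mitochondrial inner membrane protein, had 455 K562 reads and 1566 HepG2 reads, a ratio of 3.46 (3.11 to 3.85). IDH3B, a subunit of the mitochondrial isocitrate dehydrogenase, had 1219 K562 reads and 2185 HepG2 reads, a ratio of 1.80 (1.68 to 1.93). AHCY, which hydrolyses S-adenosylhomocysteine, and GSS, glutathione synthetase, were near equal: AHCY had 3169 K562 reads and 2939 HepG2 reads, a ratio of 0.932 (0.886 to 0.980), and GSS had 1530 K562 reads and 1356 HepG2 reads, a ratio of 0.890 (0.827 to 0.959). ADA, adenosine deaminase of purine breakdown, had 269 K562 reads and 47 HepG2 reads, a K562/HepG2 ratio of 5.70 (4.17 to 7.94).

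Of 31 genes of chromatin and transcription, 13 were higher in HepG2, 2 in K562 and 16 neither, with a median of 1.08. NCOA3, a coactivator of nuclear receptors, had 207 K562 reads and 1171 HepG2 reads, a ratio of 5.68 (4.90 to 6.62), and DNTTIP1, a subunit of a histone deacetylase complex, had 353 K562 reads and 1110 HepG2 reads, a ratio of 3.16 (2.80 to 3.57). ZMYND8, a reader of histone marks, had 1368 K562 reads and 2321 HepG2 reads, a ratio of 1.70 (1.59 to 1.82). FOXA2, a forkhead factor of liver development, was barely read, with 1 K562 read and 36 HepG2 reads, a ratio of 36.2 (6.09 to 1468). The genes against the list were DNMT3B and CTCFL, given above.

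Of 14 liver and secretory genes, 10 were higher in HepG2, 1 in K562 and 3 neither, with a median of 3.67, and 13 further names on this list were under the read minimum. SDC4, a heparan sulfate proteoglycan of the cell surface, had 120 K562 reads and 1899 HepG2 reads, a ratio of 15.9 (13.2 to 19.3). The genes that passed neither limit were AHCY, PLTP, the phospholipid transfer protein of plasma lipoproteins, with 741 K562 reads and 621 HepG2 reads, a ratio of 0.842 (0.756 to 0.938), and TGM2, the tissue transglutaminase, with 380 K562 reads and 260 HepG2 reads, a ratio of 0.687 (0.585 to 0.807). The list also holds HNF4A, FOXA2, PCK1, CST3 and PROCR. HNF4A and FOXA2 are also hepatocyte markers, and the part of cell type in the shift of the list was not tested.

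Of 13 blood and immune genes, 7 were higher in HepG2, 2 in K562 and 4 neither, with a median of 1.88. The 2 of 13 higher in K562 (15.4%) are near the 16.8% of all genes. PLCG1, a phospholipase C of receptor signalling, had 471 K562 reads and 1731 HepG2 reads, a ratio of 3.69 (3.33 to 4.10). SAMHD1, a dNTP hydrolase that restricts viruses, had 378 K562 reads and 1463 HepG2 reads, a ratio of 3.89 (3.47 to 4.37), and STK4, the Hippo kinase MST1, had 239 K562 reads and 873 HepG2 reads, a ratio of 3.67 (3.18 to 4.25). PTPRA, a receptor tyrosine phosphatase, had 425 K562 reads and 534 HepG2 reads, a ratio of 1.26 (1.11 to 1.44), and PTPN1, the phosphatase PTP1B, lay on the other side at 1607 K562 reads and 1057 HepG2 reads, a ratio of 0.661 (0.611 to 0.715). The genes against the list were ADA and RASSF2, a Ras-association domain protein with 57 K562 reads and 0 HepG2 reads, at least 18.9-fold higher in K562. Among the listed names under the read minimum were SIRPB1, SIRPG, SIGLEC1, CD93, MMP9 and CST7.

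Of 22 genes of signalling and the cytoskeleton, 9 were higher in HepG2, 1 (PREX1) in K562 and 12 neither, with a median of 1.29. GNAS had 5140 K562 reads and 22598 HepG2 reads, a ratio of 4.42 (4.29 to 4.55). LAMA5, a laminin chain of basement membranes, had 137 K562 reads and 4064 HepG2 reads, a ratio of 29.8 (25.1 to 35.6). YWHAB, the 14-3-3 beta protein, was near equal, with 6382 K562 reads and 7160 HepG2 reads, a ratio of 1.13 (1.09 to 1.17).

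Noncoding genes lay lower than coding genes on chromosome 20 and elsewhere. The 10 members that are not protein coding had a median log2 ratio of -0.72, with 3 higher in HepG2 and 3 in K562 (30% each), and the 291 protein coding members had 1.32, with 146 and 17. On other chromosomes the medians of noncoding and coding genes were -1.52 and 0.01, and of the 357 noncoding genes there 12.6% were higher in HepG2 and 42.9% in K562. ZFAS1, a snoRNA host, had 2684 K562 reads and 1384 HepG2 reads, a ratio of 0.518 (0.485 to 0.553). SNHG17, another snoRNA host, had 408 K562 reads and 48 HepG2 reads, a K562/HepG2 ratio of 8.46 (6.26 to 11.7), and SNHG11 had 50 K562 reads and 28 HepG2 reads. LINC00261, a long noncoding gene neighbouring FOXA2, went the other way, with 5 K562 reads and 397 HepG2 reads, a ratio of 79.8 (33.9 to 247). Noncoding genes of chromosome 20 thus also had a higher median than those elsewhere.

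**Figure D4:**
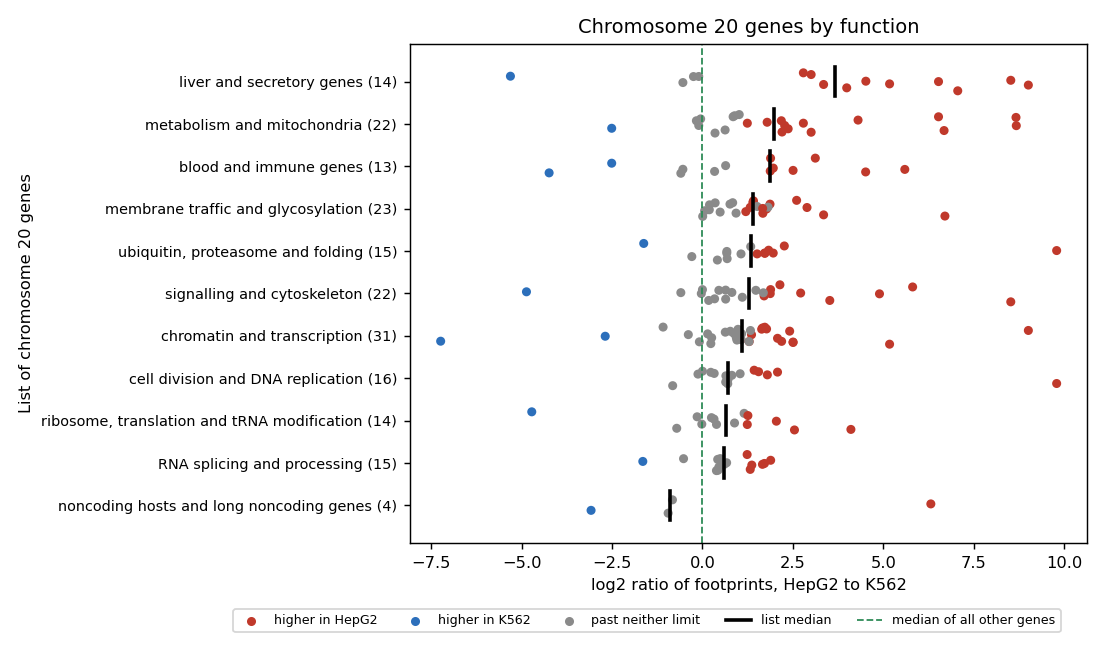
Log2 ratio of footprints, HepG2 to K562, for chromosome 20 genes in 11 lists by function, with the number measured in brackets, coloured as higher in HepG2 (red), higher in K562 (blue) or neither (grey). Black bars are list medians, which lie between 0.60 and 3.67 except for the noncoding genes at -0.89; vertical scatter within a list is for legibility only.

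Genes that work together but lie on different chromosomes allow a comparison beside genes of related function. For 37 chromosome 20 genes in 35 complexes, families or pathways, the ratio was set beside the median ratio of their partners elsewhere, 170 measured genes in all. The chromosome 20 gene lay above its partners' median in 35 of 37 cases and above every partner in 26. The chromosome was chosen for its high ratios, so this count adds no separate evidence. Of the 37 genes, 34 also lay above the median of all genes on other chromosomes, as did 83.7% of all members. The median difference was 1.39 on the log2 scale (quartiles 0.54 and 1.86), or 2.62-fold. The 37 genes had a median of 0.85, with 14 higher in HepG2 and 0 in K562, and the partners had -0.38, with 9 (5.29%) higher in HepG2 and 28 (16.5%) in K562. Part of the difference therefore comes from partners that lie below the median of all genes, which is 0.01.

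In the proteasome core, PSMA7 had a log2 ratio of 2.26 against a partner median of 0.03 over 12 partners, 11 of them lower. In the mitochondrial small subunit, MRPS26 stood at 2.04 against a partner median of -0.12, above all 12. In the small cytosolic subunit, RPS21 stood at 0.39 against a partner median of -1.02, with 18 of 20 partners lower. PCNA stood at 1.43 against a partner median of -0.34 over the 5 subunits of its loader, replication factor C. Each of these genes lay on the HepG2 side of its partners' median. The partners above PSMA7 and RPS21 rest on few unique reads, 7.37% of mapped reads for PSMA6, 0.395% for RPS7 and 2.67% for RPS2. Some lower partners were mapped as poorly, such as RPS3A at 0.319%, so these values are uncertain. Without FRG1 pseudogenes and genes under 50% unique, 31 of 32 chromosome 20 genes lay above their partners' median.

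In the splicing machinery the same held: SNRPB stood at 0.39 against a partner median of -1.27 over 6 Sm proteins, PRPF6 of the tri-snRNP at 1.37 against a partner median of -0.48, and CRNKL1 of the PRP19-associated factors at 1.72 against a partner median of -0.39. In the GPI transamidase, which attaches lipid anchors, both chromosome 20 subunits stood apart, PIGT at 1.77 and PIGU at 1.67, against partners from -0.23 to -0.18. NELFCD of the transcription pausing factor NELF stood at 1.66 against a partner median of -0.36, and TAF4 of TFIID at 1.36 against a partner median of -0.50 over 10 partners. PFDN4 of prefoldin stood at 1.07 against a partner median of -1.05. DPM1 stood at 1.20 against a partner median of -1.42 and CSE1L, the exportin that recycles importin alpha, at 0.99 against a partner median of -0.24.

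NOP56 and TPX2, which were not higher in HepG2, still lay above their partners' medians. NOP56, at -0.02, lay above all 3 box C/D partners, which ran from -1.05 to -0.69. TPX2, at -0.12, lay above 3 of 4 genes of the related chromosomal passenger complex. The exceptions were GSS, at -0.17 against a partner median of 0.05 for the glutamate-cysteine ligase subunits, and UBE2V1, at 0.41 against a partner median of 0.43 for UBE2N. The smallest differences in the HepG2 direction were those of TM9SF4, 0.08, TRMT6 of the tRNA m1A methyltransferase, 0.22, and SEC23B of the COPII coat, 0.30, whose partner medians were 1.24, 1.03 and 1.11. Of the 7 COPII partners, SEC24B was the lowest, at -0.25. The only partner of TRMT6, TRMT61A, lies on chromosome 14, which came second by median, as do SEC23A, at 5.04, and TM9SF1, at 1.48. Other partners on chromosome 14 lay lower, such as EIF2S1 at -0.37. EIF2S2, with the largest difference, rests on the 4.2% of its mapped reads that were unique, and its value is uncertain. With all mapped reads its log2 ratio was 0.45 in place of 2.55, and it passed neither limit.

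**Figure D5:**
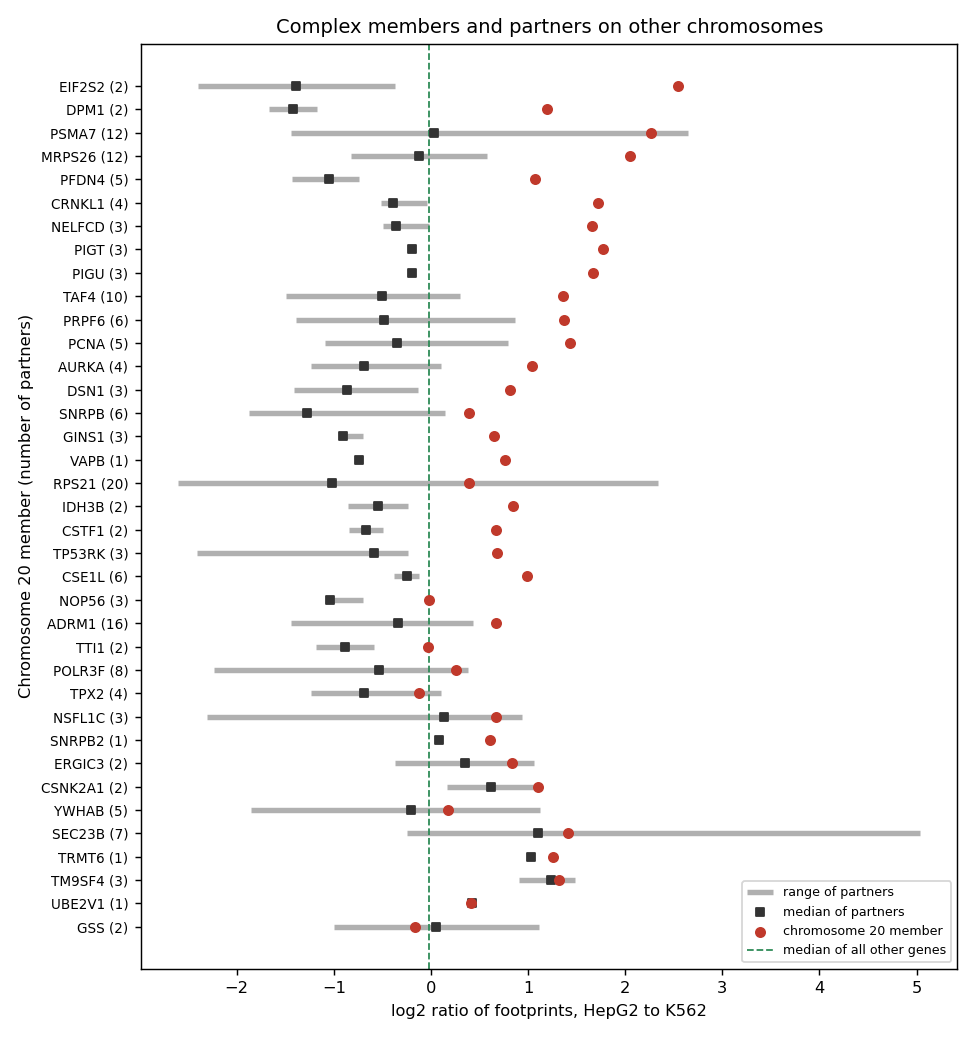
Log2 ratio of footprints, HepG2 to K562, for 37 chromosome 20 genes (red points) beside the range (grey bar) and median (black square) of their partners on other chromosomes, with the number of partners in brackets. In 35 of 37 cases the red point lies to the right of the square; GSS and UBE2V1 are the exceptions.

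Mapping limits some members. Fewer than 60% of mapped reads were unique in 9 of the 301 genes: EIF2S2, CSNK2A1, DBNDD2, SCAND1, UBE2V1, FRG1CP, FRG1BP, TTI1 and FAM210B. Over the whole chromosome 88.0% of mapped reads were unique in K562 and 91.0% in HepG2. Just inside the minimum of 20 reads lay RAD21L1, with 19 reads in K562 and 1 in HepG2, TCFL5, with 5 and 15, and PABPC1L, with 9 and 12. Just outside lay BCAS1, with 2 and 17, MYL9, with 5 and 12, and the pseudogene FRG1EP, with 17 and 0. Of the 578 genes under the minimum, 479 had 0 reads and 99 had 1 to 19.

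The choice among splice junctions compares the junctions of a gene with each other within each line. At splice sites with 20 or more reads in each table, a junction's share of the reads at its site was counted when the lines differed by 20 percentage points or more with intervals that did not overlap. This was met by 24 of 588 chromosome 20 junctions (4.08%), in 13 of 120 genes, against 4.71% of all junctions, a share near the background. Most of the 24 are pairs that compete at the same site, each counted as its own junction. The share of genes over the whole genome was not computed.

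Sequences at 3 of these sites show what was exchanged, again with 15 bases on either side and the downstream exon in capitals.
CPNE1 shorter intron: caggggactgcctcgCAATACTTCATGCTG
CPNE1 longer intron: caggggactgcctcgTACTTCATGCTGTTG
DHX35 exon included: gaagcatttatcaaaCACAATAAGGACTCT
DHX35 exon skipped: cagaagtctcacgcaCACAATAAGGACTCT
TPD52L2 exon included: gacccagtcagacctCTACAAGAAGACTCA
TPD52L2 exon skipped: gcaggtctctagcgcCTACAAGAAGACTCA

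CPNE1 encodes copine 1, a calcium-dependent phospholipid-binding protein, on the minus strand. From 1 donor its introns chr20:35626804-35627279 and chr20:35626801-35627279 end 3 bases apart, and the longer one removes the bases CAA from the message. The share of the longer intron was 0% (0% to 5.78%) for K562, from 0 of 62 reads at the site, against 53.9% (49.8% to 58%) for HepG2, from 321 of 595. The shorter one took all 62 reads of K562 and 274 of HepG2. HepG2 reads were thus assigned to both ends, and at this depth the longer intron was not detected in K562. In the reference the longer intron ends in the bases CAA, and whether the lines differ in sequence at this site was not tested.

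DHX35, a putative RNA helicase, has a coding exon of 78 bases that is skipped by the intron chr20:39021936-39025229 on the plus strand. The share of skipping was 38.3% (24.5% to 53.6%) for K562, from 18 of 47 reads at the site, against 6.25% (2.06% to 14%) for HepG2, from 5 of 80. TPD52L2, a member of the tumor protein D52 family, has a coding exon of 60 bases that is skipped by chr20:63873817-63882718 on the plus strand. Its share of skipping was 30.1% (22.9% to 38.0%) for K562, from 46 of 153 reads at the site, against 52.4% (47.6% to 57.2%) for HepG2, from 229 of 437. Skipping was thus lower in HepG2 for DHX35 and higher in HepG2 for TPD52L2, where it was near equal with inclusion.

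RBM39 has an alternative exon of 73 bases, and its junction to the next exon had a share of 6.96% (5.39% to 8.82%) for K562, from 63 of 905 reads at the site, against 32.5% (28.2% to 37.1%) for HepG2, from 144 of 443. Transcripts with that junction are annotated with their stop before it, so it is classed as 3′ untranslated. In CDK5RAP1, a mitochondrial tRNA-modifying enzyme, the share of the coding junction was 37.0% (24.3% to 51.3%) for K562, from 20 of 54 reads at the site, against 90.9% (80.0% to 97%) for HepG2, from 50 of 55, and the remainder belonged to a noncoding transcript form. For ZMYND8 the share of the nearer acceptor was 42.9% (24.5% to 62.8%) for K562, from 12 of 28 reads at the site, against 75.8% (63.3% to 85.8%) for HepG2, from 47 of 62. RBM39, CDK5RAP1 and ZMYND8 all passed neither limit as genes.

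Differences at 5′ untranslated junctions were seen in RRBP1, PTPRA, ADNP and CSTF1. In RRBP1 the share of the longer intron was 83.1% (71.0% to 91.6%) for K562, from 49 of 59 reads at the site, against 50.4% (45.3% to 55.4%) for HepG2, from 197 of 391. In CSTF1, a subunit of the cleavage stimulation factor, the share of the longer intron was 65.6% (55.2% to 75%) for K562, from 63 of 96 reads at the site, against 35.8% (23.1% to 50.2%) for HepG2, from 19 of 53. These genes include both shifted and unshifted members, since RRBP1 was higher in HepG2 and CSTF1 passed neither limit.

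Where in the message the junctions lay also differed between the lines. Of chromosome 20 reads, 6.53% (6.41% to 6.66%) were at 5′ untranslated junctions in K562 and 2.92% (2.86% to 2.97%) in HepG2, and on all other chromosomes the shares were 6.47% and 3.31%. The coding share on chromosome 20 was 90.8% for K562 and 96.2% for HepG2 when a junction that is coding in any transcript is classed as coding. With coding taken last, it was 48.4% and 52.9%, so the size of the coding share depends on this choice. Within 61 chromosome 20 genes with 20 or more reads in both parts, and at least 1 in each line, the log2 ratio was lower at 5′ untranslated than at coding junctions in 43 (70.5%), with medians of 0.31 and 1.41, and elsewhere it was lower in 1496 of 1900 (78.7%). The lower HepG2 share of 5′ untranslated reads was thus also seen on the other chromosomes. With coding junctions alone, 140 of 276 chromosome 20 genes were higher in HepG2 and 16 in K562, against 22.1% and 15.7% of all genes. The median above the other chromosomes was then 1.37.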

How the data were processed

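The deposited values are raw counts of reads per annotated splice junction, all mapped and uniquely mapped, in 1 table per cell line, per the file headers. cutadapt, Bowtie2, STAR 2.6.0 and GRCh38 are named in the submitters' processing notes, without roles, with the counting program and annotation release not given in the sources used here. Junctions (350863 per table, 99.8% matched) were classed with GENCODE 29 introns, coding first. Each gene's unique reads were added up, leaving out junctions of several genes. Depth was scaled by TMM (edgeR 4.0.16); exact Clopper-Pearson 95% intervals used SciPy 1.17.1; a count of 0 was set to 3 reads. The intervals and calls were tested on simulated gene counts with counting error only, scaled by total reads. TMM scaling, junction shares and partner comparisons were not part of that test. Members, lists, partners and alternatives were chosen with earlier results of these data known. From the 11 function lists, 39 of 289 entries were removed after values were seen, because the gene's known role differed from the list's name, which moved list medians by -0.25 to 0.62. Named genes were, by rule, the strongest intervals per arm and for K562, genes flanking the centromere and the read minimum, the most-read and opposing list members, all partner-table members and the largest share differences; others were named after their values were seen.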

Additional observations from a re-analysis of the deposited data

Results flagged for a closer look

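Signal on chromosome 20 also appeared in data that the main comparisons did not use. The 159 junctions assigned to more than 1 gene held 2446 unique reads in K562 and 5469 in HepG2, a scaled ratio of 2.25 (2.14 to 2.36), on the same side as the chromosome's genes. The ratio of such junctions on other chromosomes was not computed. Among genes under the minimum of 20 unique reads, ATP5F1E, the epsilon subunit of ATP synthase, had 1936 mapped reads in K562 and 1828 in HepG2 when multi-mapped reads were included, against 8 and 3 unique. The pseudogene FRG1DP had 96 and 46 mapped reads, with 0 unique in both, and FRG1EP had 205 and 54, with 17 and 0 unique. Which copy such multi-mapped reads came from was not tested.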

How the results depend on the processing

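No paired analysis was possible because the deposited tables hold 1 column of unique reads per line and carry no replicate. Over the 13 alternatives for gene ratios, the number of chromosome 20 genes higher in HepG2 ran from 106 to 158 around 149. The lowest was 106 of 227 with 20 reads in each table, against 14.4% of all genes. The highest was 158 of 321 when junctions shared between genes were added to every one of them, against 21.9%. The median above other chromosomes ran from 1.09 to 1.37, and the median difference from partners from 1.18 to 1.45. No gene took the opposite call in any alternative. Scaling by total reads moved the median of all genes to -0.41, changed the call of 44 members and turned the sign of 25. The number higher in K562 was 20 of 301 genes. It fell to 11 of 243 with a minimum of 100 reads and to 6 of 227 with 20 reads in each table. Of the 20 genes, 13 had under 10 reads in HepG2, and a minimum of 20 reads in each table leaves these out. The number of junction shares counted was 24 of 588, against 4.71% of all junctions. With 50 reads at a site it was 15 of 381, against 4.21%. At 10 points it was 39 of 588, against 7.03%, and at 40 points 4 of 588, against 1.35%. With 99% intervals it was 14 of 588, against 3.27%, and with all mapped reads 29 of 665, against 4.43%. The difference in 5′ untranslated share, -3.62 points, ran from -3.79 to -3.51. Without FRG1 pseudogenes and genes under 50% unique, an alternative chosen after seeing the data, 148 of 293 genes were higher in HepG2. In K562 19 were higher, and the shares of all genes were 22.3% and 16.6%. The arm difference of 0.18 kept its direction in 14 alternatives and moved by over 1.5 times in 5: it was 0.29 with a minimum of 100 reads, 0.017 with a minimum of 1 read, 0.38 without the most-read junction of each gene, 0.11 when junctions shared between genes were added to every one of them and 0.087 without genes between 25 and 32 Mb. Among genes with 1000 or more reads in each table, which is not one of these alternatives, the long arm had the higher median. Leaving out the most-read junction of each gene changed the call of 28 of 260 genes. Counts under about 20 reads leave wide intervals, which limits single genes more than medians.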
